A study of Homo sapiens with 16 samples.

Results

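The 32 genes described here encode proteins of homologous recombination and of the Fanconi anemia pathway, together with some of the signalling proteins that act on broken DNA. They were listed by gene name, by a rule that holds no threshold on measured values but was written with earlier results of these data known, and all 32 were found among the 20502 named genes of the table. All 32 also passed the filter on low values, which required a mean of at least 10 over the libraries and left 14544 genes for testing. RNA came from 8 established human breast cancer cell lines, namely MDA-MB-157, MDA-MB-231, MDA-MB-436, MDA-MB-468, HCC38, HCC70, HCC1143 and HCC1395. Each line was treated for 6 h with topsentinol L trisulfate (TLT), a sterol with sulfate groups that was purified from a *Topsentia* sponge, or with the vehicle DMSO, in the presence of serum. This gave 16 libraries, 1 of each treatment per line. The labels give the dose of TLT as the EC75, a concentration set by its effect on viability, and the methods give no molar concentration for the RNA samples. The study selected these lines as sensitive to TLT and as basal-like or claudin-low, the breast cancer subtypes that mostly lack hormone receptors. In its viability assays HCC38 had the highest EC50 of these lines, so it was the least sensitive. In DMSO the transcript of the estrogen receptor, ESR1, reached at most 68.9 and that of the progesterone receptor, PGR, at most 91.5, on a scale whose 75th percentile of nonzero genes lay between 996 and 1000 in each library. That of the growth factor receptor HER2, ERBB2, was not low and ran from 513 to 1203 in DMSO. Values on this scale are normalized estimates of reads per gene and are not divided by gene length.

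Homologous recombination repairs a double-strand break by copying the intact sister chromatid. The ends are first trimmed to single strands, BRCA1 and PALB2 then bring BRCA2 to the ends, and the search for the matching sequence follows. The Fanconi anemia pathway unhooks crosslinks between the strands of DNA. Its core complex attaches ubiquitin to FANCD2 and FANCI, and the break made during unhooking is passed to homologous recombination. Inherited loss of BRCA1, BRCA2 or PALB2 predisposes to breast cancer, and tumors without a working pathway are sensitive to platinum agents and to PARP inhibitors.

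Of the 32 genes, 17 fell with TLT, 1 rose and 14 did not pass the test, made with limma on the log2 scale with 1 term per cell line, at a Benjamini-Hochberg adjusted p under 0.05 over all genes tested. Over all genes tested, 10.9% fell and 15% rose. The median change of the 32 genes was -0.33 on the log2 scale, against 0.05 for all genes tested. The estimate was below 0 for 26 of the 32 genes, against 44.7% of all genes. A value lower with TLT in 8 of 8 lines was found for 12 of the 32 genes, against 6.55% of all genes, and a value higher in 8 of 8 lines for 1, against 9.19%. In no member did the 8 DMSO values and the 8 TLT values separate without overlap, a pattern found in 0.0963% of all genes. In bulk RNA of this kind, fewer cells with a transcript and less transcript per cell cannot be told apart. Each treatment had 1 library per line and repeat cultures are not mentioned, so a p-value here rests on how far the 8 lines differ in their change. With TMM scaling, 13.5% of all genes fell and 11.9% rose, the median of all genes moved from 0.05 to -0.0025, and 18 of the 32 genes fell.

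**Figure D1:**
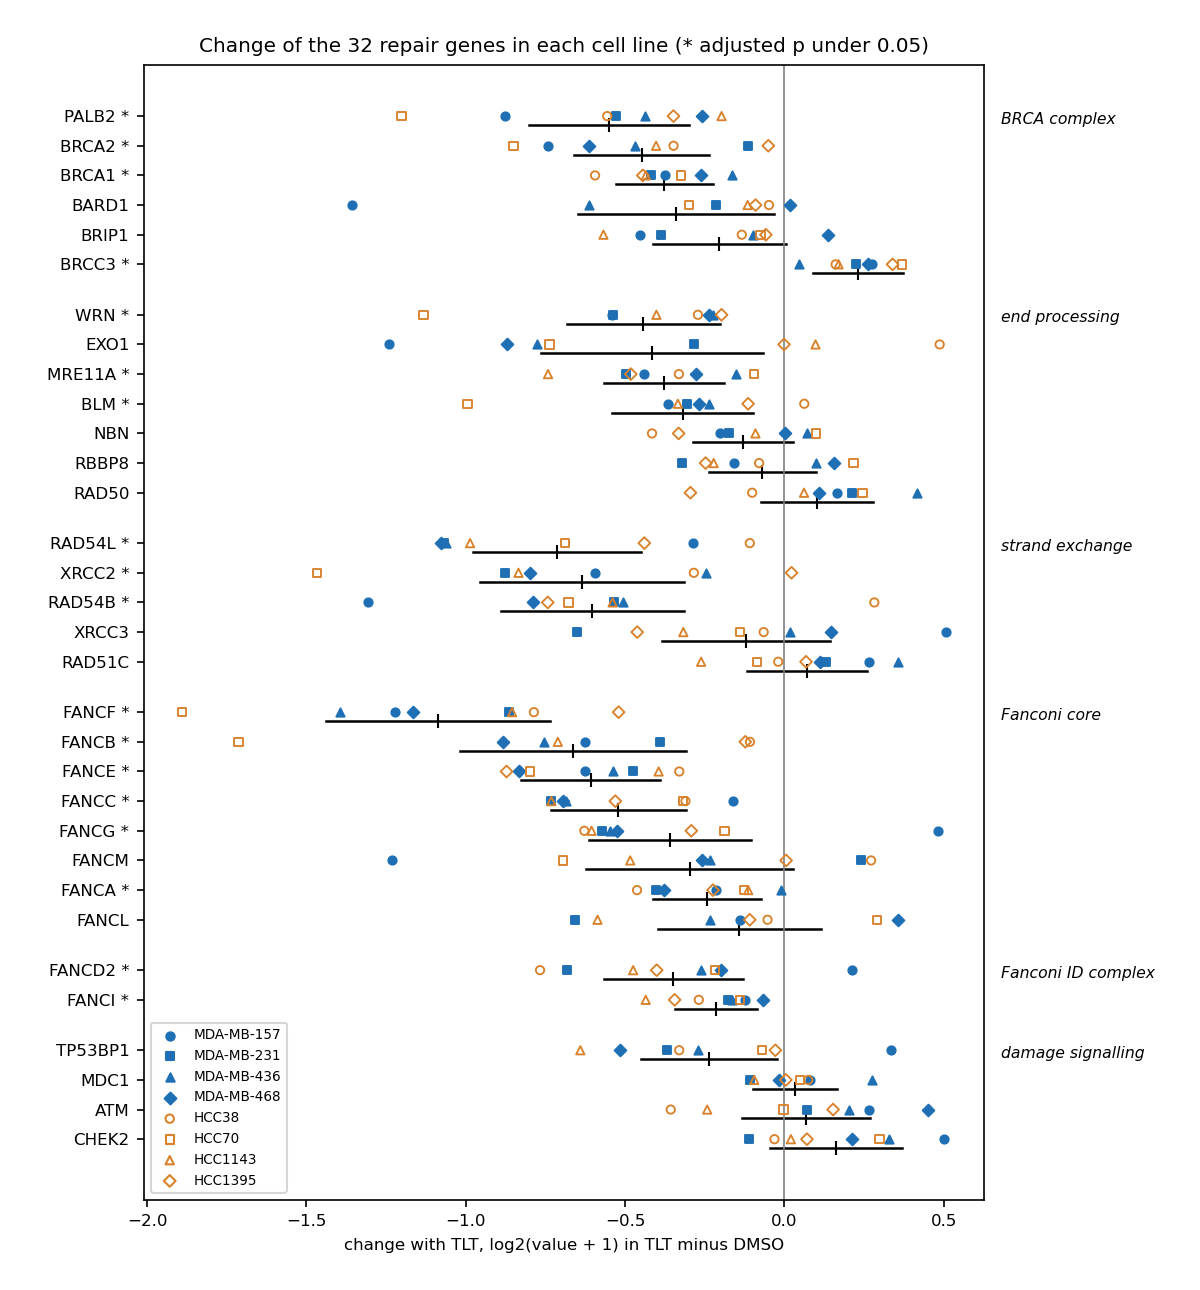
Change of each of the 32 genes with TLT, as log2(value + 1) in TLT minus DMSO, with 1 point per cell line (filled blue for MDA-MB lines, open orange for HCC lines), grouped by role and sorted within each role. Black bars give the fitted change with its 95% interval, and stars mark the 17 genes that fell and BRCC3, which rose.

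Members of the Fanconi core complex, the strand exchange factors and the BRCA complex held the largest falls, and the damage signalling genes held none. By role, 6 of 8 core complex genes fell, with a median of -0.44. Of the strand exchange genes 3 of 5 fell, with a median of -0.60, and of the end processing genes 3 of 7 fell, with a median of -0.32. In the BRCA complex 3 of 6 fell and 1 rose, with a median of -0.36. Both genes of the FANCD2-FANCI pair fell, with a median of -0.28. None of the 4 damage signalling genes passed the test, and their median was 0.05, though TP53BP1 passed with TMM scaling. A difference between the roles was not tested.

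As 17 of the members fell, their promoters were searched for short motifs of cell cycle control in the window from 250 bases before to 50 bases after the RefSeq start. Promoters were at hand for 28 of the 32 genes. The letters TTCCCGC, the core bound by E2F factors, which drive S phase genes, were found on either strand in 11 of 28 members (39.3%), against 6.55% of 35116 promoters in the table and 9.38% of the 16252 promoters of genes tested here. They were present in 7 of 14 members that fell and in 4 of 14 others, which were BARD1, BRIP1, XRCC3 and FANCL. The CCAAT box, bound by NF-Y, was found in 13 of 28 members (46.4%) against 34.6% of all promoters, and TTTGAA, the core of the cell cycle homology region, in 4 of 28 (14.3%) against 15.2%. Among promoters of genes tested these shares were 34.5% and 10.6%. A match describes letters in a window and is not evidence of binding. The sites of the E2F core in members that fell are shown 5′ to 3′ along the strand of the gene, with the motif in capitals (GCGGGAA is its reverse complement). The sequences are from RefSeq (GRCh38.p14), and the positions are those of their exact match in GRCh37, the build of the files.
RAD54L, chr1:46713300-46713328, plus strand: gcgcagcactaTTCCCGCctcttccttgg
XRCC2, chr7:152373188-152373216, minus strand: tggcgttggtgGCGGGAAagttgagtctc
FANCC, chr9:98080019-98080047, minus strand: tcgtcggaattTTCCCGCgacgccgcggg
FANCE, chr6:35420122-35420150, plus strand: tttccgacagcGCGGGAAcggctgcggct
FANCG, chr9:35080006-35080034, minus strand: cctcggtggaaGCGGGAAcccaggaggac
FANCD2, chr3:10068108-10068136, plus strand: cgtcgggcctgGCGGGAAagtcgaaaact

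BLM held the E2F core at 2 places, 74 bases before and 4 bases after its start. The 129 bases just before its start are shown because they also hold the CCAAT box in both orientations, with ATTGG as the reverse complement and all 3 matches in capitals.
BLM, chr15:91260447-91260575, plus strand: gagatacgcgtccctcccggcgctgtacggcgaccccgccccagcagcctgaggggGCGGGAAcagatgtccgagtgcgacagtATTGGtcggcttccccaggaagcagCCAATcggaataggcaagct

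FANCF, the member with the largest fall, lacked the E2F core in this window. It held 2 CCAAT boxes, 92 and 52 bases before its start, which are shown with the box in capitals.
FANCF, chr11:22647446-22647472, minus strand: atgcatttcgaCCAATagcattgcaga
FANCF, chr11:22647406-22647432, minus strand: tcgcggatgttCCAATcagtacgcaga

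Among the core complex genes, FANCF fell furthest. FANCF joins FANCC and FANCE to the rest of the complex. Its DMSO values were 166 in MDA-MB-157, 57.8 in MDA-MB-231, 350 in MDA-MB-436, 177 in MDA-MB-468, 147 in HCC38, 120 in HCC70, 118 in HCC1143 and 117 in HCC1395. With TLT the same lines gave 70.6, 31.3, 133, 78.2, 84.6, 31.7, 64.8 and 81.5. Every line was lower with TLT, MDA-MB-436 was the highest line under both treatments, and the ranges overlapped. FANCF fell by 52.9% (log2 change -1.09 ± 0.16 SE, n = 8 lines, adjusted p = 0.00078 by limma). The change ran from -1.89 in HCC70 to -0.52 in HCC1395. These values rest on an estimated 46 to 351 reads in DMSO and 21 to 110 in TLT.

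FANCC and FANCE, the partners of FANCF in the same subcomplex, also fell in each line. FANCE, which contacts FANCD2, ranged from 271 to 627 in DMSO with a median of 375, and from 187 to 352 in TLT with a median of 233. It fell by 34.4% (log2 change -0.61 ± 0.10 SE, n = 8, adjusted p = 0.00143, limma), from -0.87 in HCC1395 to -0.33 in HCC38. FANCC ranged from 238 to 1074 in DMSO with a median of 517, and from 164 to 866 in TLT with a median of 343. It fell by 30.3% (log2 change -0.52 ± 0.10 SE, n = 8, adjusted p = 0.00284, limma), least in MDA-MB-157 at -0.16.

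FANCB, which supports the ubiquitin ligase FANCL, ranged from 139 to 417 in DMSO with a median of 246, and from 41.7 to 270 in TLT with a median of 156. The lowest line was HCC70 under both treatments, and the change there, -1.71, lay well below that of any other line. FANCB fell by 36.9% (log2 change -0.66 ± 0.17 SE, n = 8, adjusted p = 0.0117, limma), lower in 8 of 8 lines. It was almost level in HCC38 and HCC1395, at -0.11 and -0.12.

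FANCA and FANCG form another subcomplex of the core, and their calls were the least firm. FANCG ranged from 376 to 1217 in DMSO with a median of 869, and from 376 to 963 in TLT with a median of 589. It was lower in 7 lines and higher in MDA-MB-157, by 0.48, and its fitted change was -0.36 ± 0.12 (SE, n = 8, adjusted p = 0.0401, limma). Leaving out any line except MDA-MB-157 brought its adjusted p by limma to between 0.0525 and 0.102. FANCA ranged from 121 to 1437 in DMSO with a median of 1112, and from 104 to 1230 in TLT with a median of 893. It was lower in 8 of 8 lines by a small amount, -0.24 ± 0.08 (SE, n = 8, adjusted p = 0.0381, limma). Its adjusted p by limma lay between 0.0507 and 0.0980 when MDA-MB-231, MDA-MB-468, HCC38, HCC70, HCC1143 or HCC1395 was left out. The annotation places 27.4% of the FANCA transcript over exons of ZNF276 on the opposite strand. ZNF276 changed by -0.45 ± 0.15 (SE, n = 8, adjusted p = 0.0360, limma), and without strand in the libraries the reads of both genes cannot be told apart there.

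FANCL, the ubiquitin ligase of the core, and FANCM, the DNA translocase that anchors it, did not pass the test. The estimate for FANCL was -0.14 with a 95% interval of -0.40 to 0.11, and its change ran from -0.66 in MDA-MB-231 to 0.36 in MDA-MB-468. The estimate for FANCM was -0.30 with an interval of -0.62 to 0.03, from -1.23 in MDA-MB-157 to 0.27 in HCC38. For both genes the lines went in either direction.

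**Figure D2:**
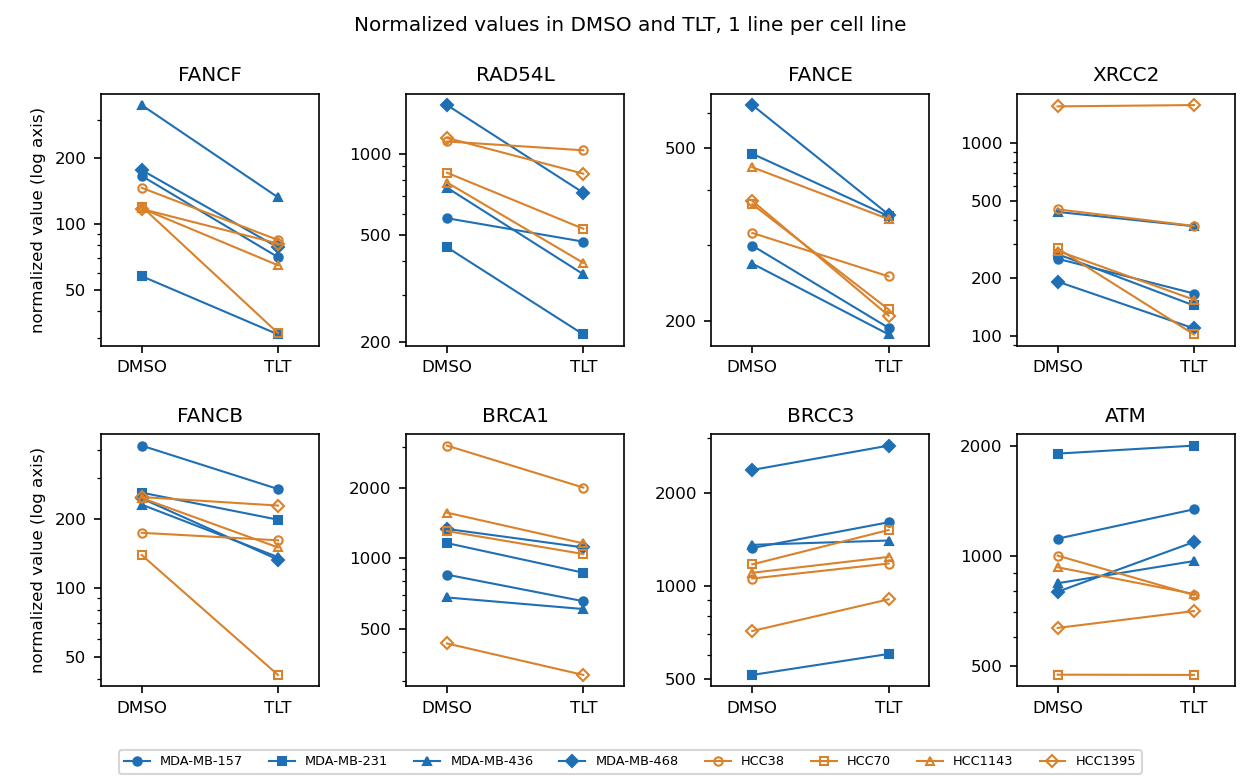
Normalized values of 8 of the genes in DMSO and in TLT on log axes that differ between panels, with each cell line joined by a line (filled blue for MDA-MB lines, open orange for HCC lines). FANCF, RAD54L, FANCE, FANCB and BRCA1 were lower with TLT in 8 of 8 lines and XRCC2 in 7, BRCC3 was higher in 8, and ATM went in either direction.

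FANCD2 and FANCI, the pair that the core complex marks with ubiquitin, both fell, by less than most core genes. FANCI ranged from 1601 to 5649 in DMSO with a median of 3493, and from 1469 to 4689 in TLT with a median of 2783. Per kilobase of transcript it was the most abundant member in DMSO, with a median of 738 against 40.5 for FANCF, the least abundant. FANCI fell by 13.9% (log2 change -0.22 ± 0.06 SE, n = 8, adjusted p = 0.0197, limma), lower in 8 of 8 lines. FANCD2 ranged from 694 to 2480 in DMSO with a median of 887, and from 498 to 2067 in TLT with a median of 828. It fell by 21.5% (log2 change -0.35 ± 0.10 SE, n = 8, adjusted p = 0.0236, limma), lower in 7 lines and higher by 0.21 in MDA-MB-157. The median change of all genes tested in MDA-MB-157 was 0.22. The call for FANCI was lost without HCC1395 or HCC1143, at an adjusted p by limma of 0.0526 and 0.0539. That for FANCD2 was lost without MDA-MB-436, MDA-MB-231 or HCC1143, at an adjusted p by limma of 0.0502, 0.0596 and 0.0562.

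In the BRCA complex, BRCA1, BRCA2 and PALB2 fell in each of the 8 lines. BRCA1, the ubiquitin ligase that promotes trimming of the ends and recruits PALB2, gave DMSO values of 853 in MDA-MB-157, 1163 in MDA-MB-231, 682 in MDA-MB-436, 1336 in MDA-MB-468, 3028 in HCC38, 1308 in HCC70, 1568 in HCC1143 and 434 in HCC1395. With TLT the same lines gave 657, 869, 608, 1114, 2006, 1044, 1160 and 319. The 8 lines stood in the same order under both treatments, with HCC38 highest and HCC1395 lowest. BRCA1 fell by 23.0% (log2 change -0.38 ± 0.07 SE, n = 8, adjusted p = 0.00284, limma), from -0.59 in HCC38 to -0.16 in MDA-MB-436.

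PALB2, the bridge between BRCA1 and BRCA2, ranged from 265 to 913 in DMSO with a median of 581, and from 183 to 796 in TLT with a median of 354. It fell by 31.7% (log2 change -0.55 ± 0.12 SE, n = 8, adjusted p = 0.00527, limma), most in HCC70 at -1.20 and least in HCC1143 at -0.20. BRCA2, which acts at the trimmed ends, ranged from 293 to 1766 in DMSO with a median of 989, and from 175 to 1705 in TLT with a median of 686. It fell by 26.7% (log2 change -0.45 ± 0.10 SE, n = 8, adjusted p = 0.00636, limma), least in HCC1395, the line with the highest level, at -0.05.

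BRCC3 was the 1 member that rose. BRCC3 is a deubiquitinase that removes the ubiquitin chains to which BRCA1 is recruited. Its DMSO values were 1328 in MDA-MB-157, 516 in MDA-MB-231, 1359 in MDA-MB-436, 2373 in MDA-MB-468, 1058 in HCC38, 1175 in HCC70, 1104 in HCC1143 and 716 in HCC1395. With TLT the same lines gave 1608, 604, 1404, 2844, 1183, 1518, 1242 and 906. Each line was higher with TLT, by 0.05 in MDA-MB-436 to 0.37 in HCC70, while the lines themselves spanned 4.60-fold in DMSO. The change was 0.23 ± 0.07 (SE, n = 8, adjusted p = 0.0214, limma). Its adjusted p by limma was 0.0598 without MDA-MB-468, 0.0575 without HCC70, 0.0527 without HCC1395 and 0.0595 with TMM scaling.

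BARD1, the partner of BRCA1 in the ligase, and BRIP1, a helicase that binds BRCA1, did not pass the test. BARD1 had an estimate of -0.34 with a 95% interval of -0.65 to -0.03 and an adjusted p of 0.0931 (limma). It was lower in 7 lines, by -1.36 in MDA-MB-157 and -0.61 in MDA-MB-436 and between -0.30 and -0.05 in the other 5. BRIP1 had an estimate of -0.20 with an interval of -0.41 to 0.00, lower in 7 lines.

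Among the genes that trim or unwind DNA ends, the nuclease MRE11A and the helicases BLM and WRN fell. MRE11A ranged from 444 to 2020 in DMSO with a median of 689, and from 326 to 1606 in TLT with a median of 569. It fell by 23.0% (log2 change -0.38 ± 0.09 SE, n = 8, adjusted p = 0.00851, limma) and was lower in 8 of 8 lines, from -0.74 in HCC1143 to -0.10 in HCC70. Its partners in the complex that binds broken ends did not pass the test. The estimate for RAD50 was 0.10 with a 95% interval of -0.07 to 0.28, and that for NBN was -0.13 with an interval of -0.29 to 0.03. The difference between the 3 subunits was not tested. In the GENCODE annotation 91% of the RAD50 transcript is shared with another gene on the same strand, which was not matched to a gene tested.

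WRN, the helicase and exonuclease lost in Werner syndrome, ranged from 168 to 1493 in DMSO with a median of 629, and from 76.2 to 1237 in TLT with a median of 474. It fell by 26.4% (log2 change -0.44 ± 0.11 SE, n = 8, adjusted p = 0.0121, limma), with HCC70 the lowest line and also the line with the largest change, -1.13. BLM, the helicase lost in Bloom syndrome, ranged from 367 to 1928 in DMSO with a median of 1118, and from 259 to 1881 in TLT with a median of 969. Its change of -0.32 ± 0.10 (SE, n = 8, adjusted p = 0.0358, limma) again was largest in HCC70, at -0.99, and HCC38 was slightly higher, at 0.06. The call for BLM was lost when MDA-MB-231, MDA-MB-436, MDA-MB-468, HCC70 or HCC1143 was left out, at an adjusted p by limma of 0.0631 to 0.0722.

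EXO1, the nuclease of long-range trimming, split the lines. Its DMSO values ranged from 1121 to 3207 with a median of 1478, and its TLT values from 598 to 3432 with a median of 918. It was lower by -1.24 in MDA-MB-157, -0.87 in MDA-MB-468, -0.78 in MDA-MB-436, -0.74 in HCC70 and -0.29 in MDA-MB-231, and higher by 0.49 in HCC38 and 0.10 in HCC1143, with HCC1395 level. The estimate was -0.42 ± 0.16 (SE, n = 8, adjusted p = 0.0724, limma) over all lines and -0.55 ± 0.15 (adjusted p = 0.0197, limma) without HCC38. RBBP8, which encodes the CtIP protein that starts trimming with MRE11A, had an estimate of -0.07 with a 95% interval of -0.24 to 0.10.

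Of the strand exchange genes, RAD54L, XRCC2 and RAD54B fell. RAD54L, a motor protein that acts during strand exchange, gave DMSO values of 577 in MDA-MB-157, 450 in MDA-MB-231, 749 in MDA-MB-436, 1514 in MDA-MB-468, 1110 in HCC38, 850 in HCC70, 782 in HCC1143 and 1144 in HCC1395. With TLT the same lines gave 472, 214, 358, 717, 1030, 527, 394 and 844. Each line was lower, and in MDA-MB-231, MDA-MB-436, MDA-MB-468 and HCC1143 the change lay between -1.08 and -0.99, while HCC38 was almost level at -0.11. RAD54L fell by 39.1% (log2 change -0.71 ± 0.12 SE, n = 8, adjusted p = 0.00168, limma). The annotation places 26.2% of its transcript over LRRC41 on the opposite strand, and LRRC41 did not pass the test, at 0.12 (adjusted p = 0.345, limma). Such overlaps also cover 36.0% of the TP53BP1 transcript (TUBGCP4), 34.2% of that of XRCC3 (KLC1) and 27.3% of that of FANCL (VRK2).

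XRCC2, which acts early in strand exchange, gave DMSO values of 252 in MDA-MB-157, 266 in MDA-MB-231, 440 in MDA-MB-436, 192 in MDA-MB-468, 454 in HCC38, 285 in HCC70, 277 in HCC1143 and 1546 in HCC1395. With TLT the same lines gave 166.7, 145, 371, 110, 373, 102, 155 and 1570. HCC1395 stood far above the other lines and was level with TLT, at 0.02, and the other 7 lines were lower. The gene fell by 35.6% (log2 change -0.63 ± 0.15 SE, n = 8, adjusted p = 0.00873, limma), most in HCC70 at -1.47.

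RAD54B, a relative of RAD54L, ranged from 361 to 1270 in DMSO with a median of 777, and from 254 to 962 in TLT with a median of 457. It fell by 34.1% (log2 change -0.60 ± 0.13 SE, n = 8, adjusted p = 0.00682, limma), lower in 7 lines and higher by 0.28 in HCC38. FSBP, on the same strand, shares 65.5% of the RAD54B transcript in the GENCODE annotation. FSBP was not matched to a gene tested, so whether the authors' counting split reads between them is not known. RAD51C and XRCC3 did not pass the test, with estimates of 0.07 (95% interval -0.12 to 0.26) and -0.12 (interval -0.38 to 0.14).

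The damage signalling genes ATM, CHEK2, MDC1 and TP53BP1 did not pass the test. ATM, the kinase activated by double-strand breaks, gave DMSO values of 1114 in MDA-MB-157, 1903 in MDA-MB-231, 841 in MDA-MB-436, 797 in MDA-MB-468, 1001 in HCC38, 473 in HCC70, 930 in HCC1143 and 635 in HCC1395. With TLT the same lines gave 1340, 2001, 967, 1091, 782, 472, 786 and 706. ATM was higher in 5 lines and lower in 3, and its estimate was 0.07 with a 95% interval of -0.13 to 0.27. CHEK2, the kinase that ATM activates, had an estimate of 0.16 with an interval of -0.05 to 0.37, and the annotation names 7 pseudogenes of it that could take reads. The annotation also names 1 pseudogene each of BRCA1, BRCC3, MRE11A, RBBP8 and FANCD2. MDC1, the scaffold that binds marked chromatin, had an estimate of 0.03 with an interval of -0.10 to 0.17, which excludes a fall as large as that of BRCA1 or RAD54L. TP53BP1, which limits the trimming of ends, had an estimate of -0.24 with an interval of -0.45 to -0.02 (adjusted p = 0.0936, limma). It was lower in 7 lines and higher by 0.34 in MDA-MB-157, and without MDA-MB-157 the estimate was -0.32 (adjusted p = 0.0150, limma). With TMM scaling TP53BP1 passed, at -0.29 (adjusted p = 0.0331, limma).

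The level of the 32 genes varied widely between lines. In DMSO the highest line stood 2.31 to 11.8 times above the lowest, with a median of 3.63 over the 32 genes, and 14 genes spanned more than 4-fold. All 32 genes differed between lines by the limma F test over the line terms, as did 97.9% of all genes, so this count says nothing particular about them. The median log2 range between lines was 1.86 for the 32 genes and 2.34 for all genes tested. FANCA spanned 11.8-fold, with MDA-MB-157 at 121 and the other lines between 618 and 1437. WRN spanned 8.87-fold, from 168 in HCC70 to 1493 in HCC38, and XRCC2 spanned 8.05-fold, from 192 in MDA-MB-468 to 1546 in HCC1395. FANCA and XRCC2 each had 1 line that stood apart from the rest, and the WRN levels were spread over the whole range.

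BRCA1 spanned 6.98-fold, and its lowest DMSO values were those of HCC1395 at 434 and MDA-MB-436 at 682, both lines known to carry a BRCA1 mutation. The next line, MDA-MB-157, lay at 853, so MDA-MB-436 did not stand apart. Mutations were not examined in these data, and their part in the BRCA1 levels was not tested. BRCA2 spanned 6.03-fold, from 293 in MDA-MB-157 to 1766 in HCC1395, with the other 6 lines between 785 and 1108. FANCF spanned 6.06-fold, from 57.8 in MDA-MB-231 to 350 in MDA-MB-436, with the other 6 lines between 117 and 177. No line was low or high throughout. MDA-MB-157 and MDA-MB-231 each held the lowest value of 8 genes and HCC70 that of 6, while HCC38 held the highest value of 9, HCC1143 of 7 and HCC1395 of 6.

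**Figure D3:**
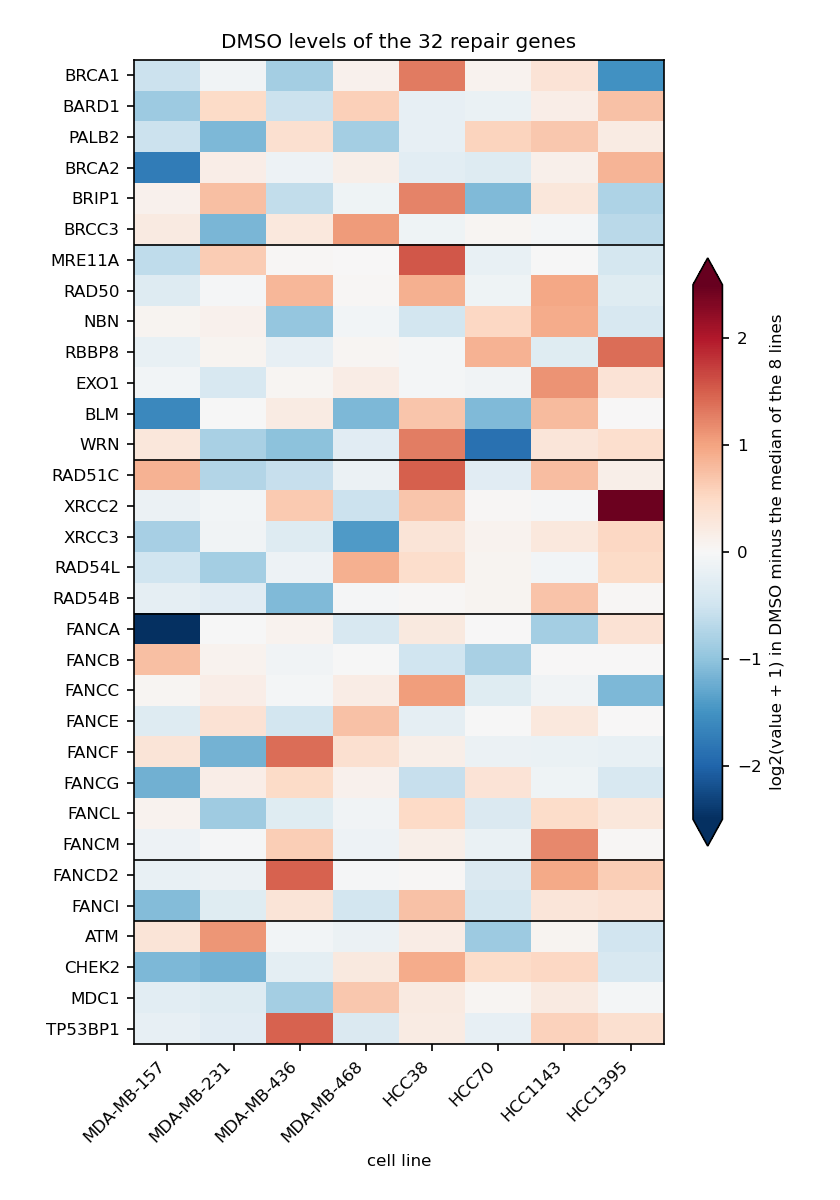
DMSO level of each gene in each cell line, as log2(value + 1) minus the median of the 8 lines for that gene, with horizontal lines between the roles. Blue marks levels below the median and red marks levels above it. FANCA in MDA-MB-157 and XRCC2 in HCC1395 stand out, and no column is blue or red throughout.

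The median change of the 32 genes was below 0 in each of the 8 lines, from -0.40 in HCC1143 and -0.39 in MDA-MB-231 to -0.20 in HCC38 and HCC70, and 21 to 28 of the genes were lower in a line. The median of all genes ran from -0.03 to 0.22. The core complex genes had a median below 0 in 8 of 8 lines, from -0.61 in MDA-MB-468 to -0.26 in HCC1395. The damage signalling genes had a median below 0 in 3 lines, from -0.18 in HCC38 to 0.30 in MDA-MB-157. In HCC38 and MDA-MB-157 the median of all genes tested was -0.03 and 0.22.

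All MDA-MB libraries were run in lane 1 and all HCC libraries in lane 2, DMSO and TLT alike, so the family of lines and the lane cannot be told apart. No member and 0% of all genes differed in their response between the HCC and MDA-MB lines by the interaction term in limma. At an unadjusted p under 0.05 this was 2 of 32 members and 410 of 14544 genes. In the MDA-MB lines alone 7 members fell, against 4.52% of all genes, and the median change of the 32 was -0.29, against 0.08 for all genes. These 7 were FANCF, FANCE, FANCC, FANCB, RAD54L, RAD54B and EXO1. In the HCC lines alone no member passed by limma, and 0.326% of all genes fell. At an unadjusted p under 0.05, 16 of 32 members passed, against 20.7% of all genes. The median change of the 32 was -0.28, against 0.0072 for all genes.

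Many of these genes are transcribed mainly in S and G2 phase, so lists of cell cycle genes were set beside them. Of 20 S phase genes, 3 fell and none rose, with a median of -0.10. Of 18 genes of G2 phase and mitosis, 4 fell and 2 rose, with a median of -0.08. Among all genes tested 10.9% fell and 15% rose, with a median of 0.05. The line medians of the S phase list ran from -0.25 in MDA-MB-231 to 0.15 in MDA-MB-157. Those of the G2 list ran from -0.42 in HCC70 to 0.35 in HCC38. In MDA-MB-231, MDA-MB-157, HCC70 and HCC38 the median of all genes tested was -0.02, 0.22, 0.10 and -0.03. The part of the cell cycle in the changes of the 32 genes was not tested.

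**Figure D4:**
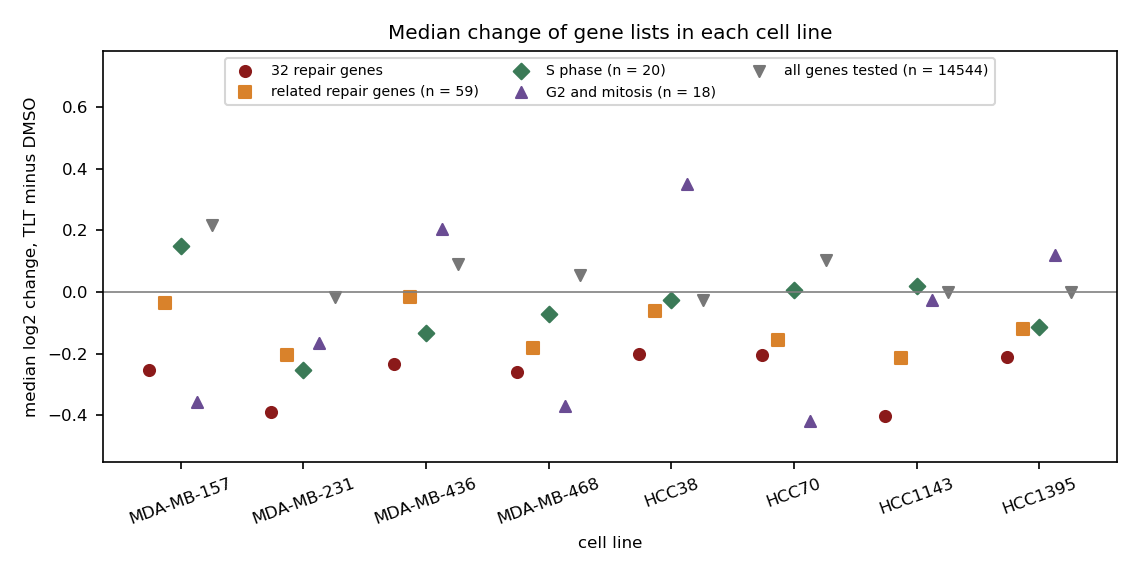
Median log2 change with TLT in each cell line for the 32 repair genes, 59 related repair genes, 20 S phase genes, 18 genes of G2 phase and mitosis and all 14544 genes tested. The 32 repair genes lie between -0.40 and -0.20 in each line, while the G2 list runs from -0.42 to 0.35.

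Among other genes of the same pathways, their resolvases and helicases, more fell than rose. Of 59 related repair genes, 18 fell, 2 rose and 39 did not pass, with a median of -0.17. For all genes tested the shares were 10.9% lower and 15% higher, with a median of 0.05. Among the 4 that fell with the smallest p, EME1, a partner of the MUS81 nuclease, changed by -1.05 ± 0.11 (SE, n = 8, adjusted p = 0.000108, limma), from a median of 274 in DMSO to 146 in TLT. GEN1, a nuclease that cuts Holliday junctions, changed by -0.72 ± 0.09 (SE, n = 8, adjusted p = 0.000311, limma). RECQL5, a helicase, and RAD52, which anneals single strands, changed by -0.83 and -0.89, and these 4 genes were lower in 8 of 8 lines. UBE2N, which builds ubiquitin chains at breaks, rose by 0.37 and the helicase gene FBXO18 by 0.25, both higher in 8 of 8 lines.

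The 32 genes differed widely in structure. FANCF (chr11:22644079-22647369, minus strand, GRCh37) has 1 exon, the only member for which this holds, and spans 3.29 kb. Among the 13663 genes tested whose position is known, 310 have 1 exon, with a median change of -0.21, and 25.8% of them fell. The 17 members that fell had a median span of 75.5 kb and 18 exons, and the 14 that did not pass had 73.5 kb and 16 exons. Across the 32 genes the change correlated with log10 of the span at a Pearson r of 0.35 and a Spearman rho of 0.22. Across the 13663 genes these were 0.03 and 0.02. For the number of exons they were 0.46 and 0.21 in the 32 genes, and 0.12 and 0.08 in the 13663. For transcript length they were 0.06 and 0.04, and -0.09 and -0.12. FANCF has both the shortest span and the largest fall of the members, which weighs on the Pearson values, and a fit without it was not made. These correlations describe genes of the same libraries.

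Several members start within 1 kb of a gene that is read in the other direction. PALB2 fell while DCTN5, 156 bases away, changed by -0.08 (adjusted p = 0.404, limma), and FANCB fell while MOSPD2, 352 bases away, changed by -0.04 (adjusted p = 0.785, limma). MRE11A fell, and ANKRD49, 140 bases away, had an estimate of -0.21 (adjusted p = 0.407, limma). BRCC3 rose, and MTCP1, 372 bases away, fell by 0.60 on the log2 scale (adjusted p = 0.00830, limma), while MTCP1NB at the same distance had an estimate of -0.15 (adjusted p = 0.440, limma). RAD51C did not pass, and TEX14, 557 bases away and low at a mean of 51.1 in DMSO, rose by 0.57 (adjusted p = 0.0219, limma). ATM did not pass, and NPAT, 429 bases away, had an estimate of -0.53 (adjusted p = 0.0832, limma). PURG, HSCB and ZFYVE21, beside WRN, CHEK2 and XRCC3, did not pass the test, and ZAR1L, beside BRCA2, was not matched to a gene tested. Differences between partners were not tested.

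On an estimate from the steps between low values, the DMSO libraries held 12.2 to 18.8 M reads and the TLT libraries 10.6 to 20.1 M. Of the markers of other cell types, some were near 0 and others were not. The leukocyte genes PTPRC and CD3E stayed at or below 1.82 and the hemoglobin gene HBB at or below 1.2. The summed level of the 5 leukocyte markers ran from 11.3 to 870 in DMSO and from 17.9 to 1547 in TLT, nearly all of it CD14 at the top, which rose and was higher in 8 of 8 lines, and no endothelial marker passed the filter. Of 2 red cell markers, HBA1 rose, to at most 208 in TLT, and HBB was not tested. Against 15% of all genes tested, 5 of 10 epithelial markers rose, with a median of 0.51. Of 4 mesenchymal markers 2 rose, with a median of 0.23, and of 3 receptor genes none passed by limma. The part of these markers in the changes of the 32 genes was not tested.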

How the data were processed

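RNA of 8 breast cancer lines treated with DMSO or TLT was read with 50 cycles from 1 end, without strand. The authors aligned reads with MapSplice to hg19 and estimated gene values with RSEM. They deposited a signal normalized to the upper quartile of each library, and per the labels also used DESeq2 (version 1.4.5), whose counts were not used here. Of 20531 rows, 29 without a gene name (0.0398% of the signal) were left out. Between 82.9% and 84.8% of values under 60 were whole multiples of 1 read within 0.01 reads, so no count test was run.

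Genes with a mean of at least 10 were fitted on log2(value + 1) by treatment and cell line in R 4.3.3 with limma 3.58.1, whose moderation used a trend and was robust. P-values were adjusted by Benjamini-Hochberg over all genes tested and called under 0.05. Changes on this scale understate those of genes with low values. Pairing comes from the line in the labels, and deviations of both libraries of a line correlated at 0.900 to 0.954. The fit was tested on simulated data. Tables were joined in Python 3.11.15. Gene structure is from GENCODE on GRCh37 and promoters are from RefSeq. Values were named for members that passed the test, for the 6 largest ranges between lines, and for up to 4 related genes per direction; ATM, EXO1, the divergent partners and the overlapping genes were added after their values were seen. The members and lists were chosen with earlier results of these data known. Alternatives were a fit with no block, TMM and median-of-ratios scaling, plain moderation, other filters, thresholds and pseudocounts, leaving out single lines, each family of lines alone and, chosen after seeing the data, leaving out both MDA-MB-157 and HCC70.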

Additional observations from a re-analysis of the deposited data

Results flagged for a closer look

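In 64 groups of 8 values (the DMSO level and the change of each of the 32 genes), 1 line stood apart by Dixon's test in 7. The nominal rate of the test is about 1 in 20, for independent groups of normal values. These groups share the same 8 lines, and the share over all genes tested was not computed. The count therefore says nothing particular about the 32 genes. The DMSO level was low in MDA-MB-157 for BRCA2, at 293 with the next line at 785, and for FANCA, at 121 with the next line at 618. XRCC2 was high in HCC1395, at 1546 with the next line at 454. The change with TLT was low in HCC70 for BLM, at -0.99 with the next line at -0.37, and for WRN, at -1.13 with the next line at -0.54. In MDA-MB-157 the change of BARD1 was -1.36 with the next line at -0.61, and that of FANCG was 0.48 with the next line at -0.19.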

How the results depend on the processing

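Without the replicate block no member passed by limma in either direction, 0 genes fell, 7 rose, and 0 related repair genes passed, with 3 members and 517 genes at an unadjusted p under 0.05. At an adjusted p under 0.01, 10 members fell and 0 rose, with 684 and 880 of all genes and 9 and 1 related genes. At 0.10, 5 related genes rose. In the MDA-MB lines alone, 7 members fell and 0 rose, with 654 and 723 of all genes and 8 and 0 related genes, and XRCC3 turned to 0.0049. In the HCC lines alone, 0 members fell or rose, with 46 and 124 of all genes and 1 and 0 related genes, and RAD50, RAD51C and ATM turned to -0.022, -0.074 and -0.11. With TMM scaling 0 members rose, TP53BP1 fell and MDC1 turned to -0.016, and with each line left out MDC1 lay between -0.0011 (MDA-MB-436 left out) and 0.054. Without both MDA-MB-157 and HCC70, chosen after seeing the data, 17 members fell, against 12.8% of all genes, and 5 related genes rose. Without a filter, 1 gene differed between the HCC and MDA-MB lines. The cause of these differences was not tested. Each family fit holds fewer samples than the main fit, and the family of lines cannot be told apart from the lane. With each line left out in turn, 12 to 18 members fell and 0 to 1 rose, 1059 to 1717 of all genes fell and 1362 (without MDA-MB-436) to 2282 rose, 13 to 20 related genes fell and 2 to 3 rose, and 0 to 1 gene differed between families. The 12 members lower in all 8 of these fits are among the 17. Without trend and robust moderation 12 members fell, against 9.28% of all genes.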
